A study of Saccharomyces cerevisiae with 8 samples.

Results

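The regions described here lie beside genes that encode enzymes of lower glycolysis in budding yeast, Saccharomyces cerevisiae. They were taken by name: the features iYKL060C (FBA1), iYJL052W (TDH1), iYJR009C (TDH2), iYGR192C (TDH3), iYGR254W (ENO1), iYHR174W (ENO2), iYCR012W (PGK1), iYKL152C (GPM1), iYAL038W (CDC19) and iYDR050C (TPI1), with or without a trailing number. Of these 10 genes, 9 had a feature in the value table, as 10 regions among 6399 in all, because TDH2 has a pair of regions, called TDH2-0 and TDH2-1. The region of TPI1 carried no value on any array and that of PGK1 was not analysed here, which left 9 regions of 8 genes, each with a value on all 8 arrays.

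The study followed where proteins that transcribe with RNA polymerase III (Pol III) bind when rapamycin, an inhibitor of the TOR kinase complex 1, is given. Chromatin was immunoprecipitated from cells in exponential growth in rich YPD medium, either 30 min into a rapamycin treatment (0.2 ng per µl) or with no drug (0 min), and hybridised to arrays whose features used here are intergenic regions. The 4 proteins were Bdp1 and Brf1, subunits of the initiation factor TFIIIB, both with a 13myc tag, C160, the largest Pol III subunit, with a 3HA tag, and Tau95, a TFIIIC subunit that the design text names t95, with a 13myc tag. Per the labels, each array carried DNA from a wild-type context in Cy5 and from a maf1 deletion context in Cy3, MAF1 being the gene of the general Pol III repressor, and both channels had the same tagged protein and time. The design text speaks of triplicates, while 1 array per protein and time was deposited, so no value has a replicate error, no test between times was possible, and every difference below is without a replicate check. A value was read as relative brightness on the log2 scale, with its zero at loci that the machinery does not bind. Which channel it comes from, and what it was divided by, are unknown.

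Glycolysis splits glucose into pyruvate and yields ATP. In yeast grown on glucose its enzymes are among the most abundant proteins, and their genes are transcribed by Pol II, with the activators Rap1 and Gcr1 at their promoters. They are thus not among the genes that Pol III transcribes, which encode tRNAs, 5S ribosomal RNA and a few other small RNAs.

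The gene in a feature's name lies just below it in coordinates. This reading was checked with Brf1: where the following gene was one for a tRNA the medians were 1.94 at 30 min (n = 211) and 2.66 at 0 min (n = 213), and where the preceding gene was, they were 0.036 (n = 180) and 0.032 (n = 199). The regions of FBA1, TDH2, TDH3 and GPM1 have names ending in C. They are therefore upstream of the gene, on its promoter side (5 regions). Those of TDH1, ENO1, ENO2 and CDC19, whose names end in W, are downstream (4 regions). Each region also lies beside the following gene, whose strand was not looked at, so it may hold that gene's promoter. No member region has a tRNA gene as its next gene. Of a region divided in 2, the part numbered 1 is likely the one at higher coordinates: where the following gene encodes a tRNA, it was the brighter part in 8 of 9 pairs for Brf1 at both times, and in 9 of 9 for Tau95. TDH2-0 would then be the part beside TDH2 and TDH2-1 the part beside MET3, which is next in line.

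Over the whole series, 117 to 639 of the features had no value per array. Pairs of arrays correlated at 0.81 to 0.96 (Pearson's r, across features that share their probes), and features of Pol III genes had medians of 2.01 to 3.27. The array with the most missing features was that of Brf1 at 30 min, and the Tau95 array at 30 min had a highest value of 5.61, against 6.81 to 8.13 on the other arrays. Both touch the changes given for these 2 proteins, and their part in these was not tested.

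On all 8 arrays the glycolytic regions lay near the middle of the genome, far below the Pol III genes. Their median was 0.41 at 30 min and 0.29 at 0 min for Bdp1, 0.41 and 0.38 for Brf1, 0.29 and 0.38 for C160, and 0.24 and 0.51 for Tau95 (n = 9 regions). The medians of all features were 0.11 and 0.084, 0.089 and -0.012, 0.00 and -0.076, and 0.17 and 0.050 in the same order.

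Few of the 9 regions were bright, taking a log2 value of 1 or more as bright. For Bdp1 there were 2 at 30 min, where 29.5% of all features reached this level, and 1 at 0 min, where 28.8% did. For Brf1 there were 3 at 30 min (27.8% of all features) and 0 at 0 min (22.7%). Quantile normalization gave 3 at 30 min and 2 at 0 min. Scaling to equal spread gave 1 at 30 min and 2 at 0 min, so that the order of the times turned there. The shares of all features under these settings were not computed. For C160 there were 2 at 30 min (25.4%) and 1 at 0 min (22.9%). For Tau95 there were 2 at 30 min (27.9%) and 2 at 0 min (25.9%). These counts are near the background of 2 to 3 in 9 or below it. The untreated Tau95 array differed at its lower end. Its lowest glycolytic value was 0.023, so that 9 of 9 regions were above 0, against 5 to 7 of 9 on the other 7 arrays. The share of all features above 0 was not computed. Above the median of all features on the same array, 0.050 here, were 8 of 9 regions, against 5 or 6 of 9 on the other 7 arrays.

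**Figure D1:**
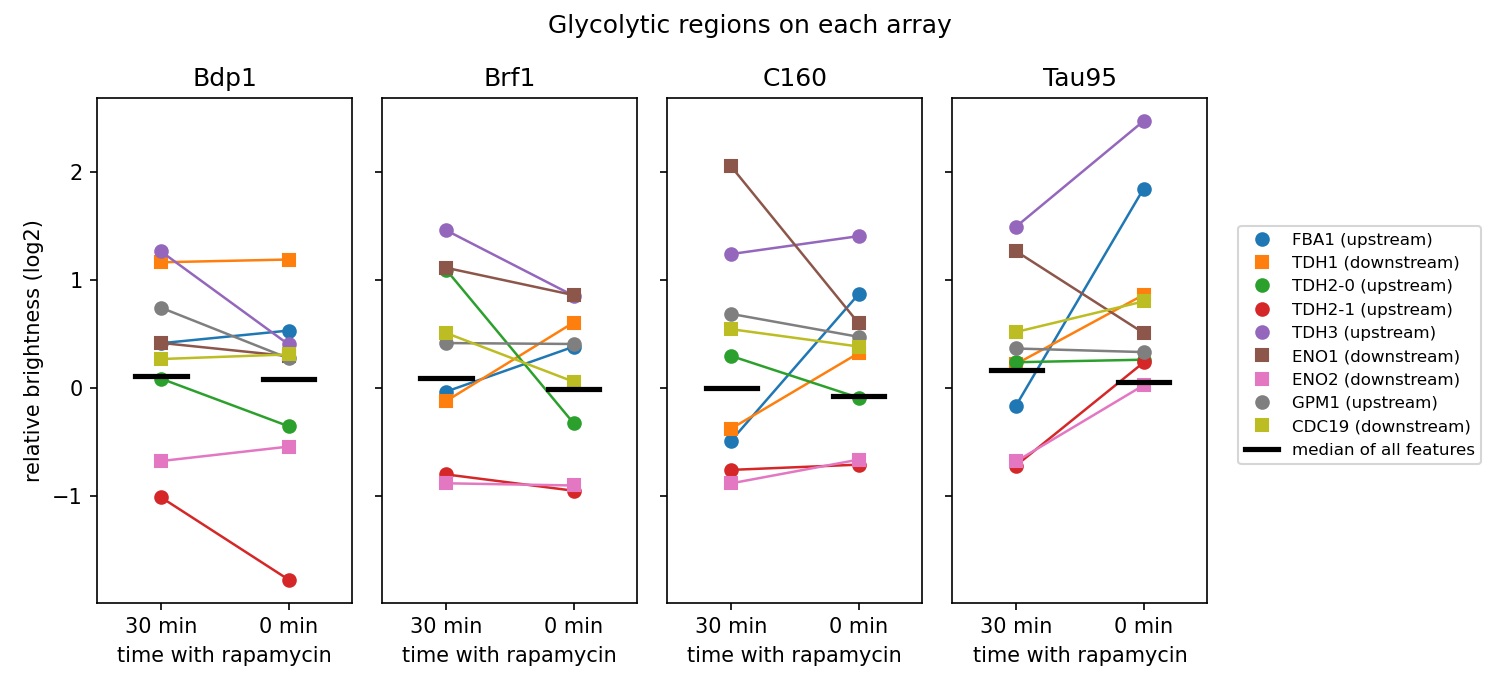
Relative brightness (log2, y axis) of the 9 glycolytic regions on the 8 arrays, with 1 panel per protein and time with rapamycin on the x axis. Lines join the 2 arrays of a protein, circles are upstream and squares downstream regions, and black bars are medians of all features. For Tau95, FBA1 and TDH3 stand at 1.84 and 2.47 at 0 min, and no region is below 0 there.

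FBA1 encodes fructose-bisphosphate aldolase, which splits the 6-carbon sugar into a pair of triose phosphates. Its upstream region had -0.17 for Tau95, -0.037 for Brf1, 0.41 for Bdp1 and -0.49 for C160 at 30 min, against 1.84, 0.38, 0.53 and 0.87 at 0 min. All 4 proteins were thus lower at 30 min, least Bdp1 with a change of -0.12, then Brf1 with -0.42, C160 with -1.36 and Tau95 with -2.01. Of 6241 features with a Tau95 change, 3 had a lower one, and of 6258 with a C160 change, 55 did. The 8 values spanned 2.34, the widest range of the 9 regions.

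The 3 TDH genes encode isoenzymes of glyceraldehyde-3-phosphate dehydrogenase, the step that reduces NAD+, and TDH3 gives most of the enzyme in growing cells. The upstream region of TDH3 had 1.49 for Tau95, 1.46 for Brf1, 1.26 for Bdp1 and 1.24 for C160 at 30 min, against 2.47, 0.85, 0.40 and 1.40 at 0 min. The 4 proteins were within 0.25 of each other at 30 min and spread over 2.07 at 0 min, where Tau95 was highest and Bdp1 lowest. The changes were -0.98 for Tau95, 0.61 for Brf1, 0.86 for Bdp1 and -0.17 for C160. TDH3 was the one glycolytic region at 1 or more on at least 4 arrays, and the share of all features that reach this was not computed.

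For TDH2, the part of the upstream region called TDH2-0 had 0.24 for Tau95, 1.09 for Brf1, 0.084 for Bdp1 and 0.29 for C160 at 30 min, against 0.26, -0.33, -0.36 and -0.094 at 0 min. Brf1 stood out at 30 min, with a change of 1.42 that 92 of 5759 features exceeded. Changes were 0.44 for Bdp1, 0.39 for C160 and -0.023 for Tau95. The other part, TDH2-1, was dimmer, with -0.72 for Tau95, -0.80 for Brf1, -1.01 for Bdp1 and -0.76 for C160 at 30 min, against 0.23, -0.95, -1.78 and -0.71 at 0 min. Its untreated Tau95 value was again the highest of the 8, and the Tau95 change was -0.95.

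TDH1 encodes the isoenzyme found mainly in cells that leave exponential growth. Its downstream region had 0.22 for Tau95, -0.12 for Brf1, 1.16 for Bdp1 and -0.38 for C160 at 30 min, against 0.86, 0.60, 1.19 and 0.32 at 0 min. Bdp1 hardly moved, by -0.026, while Brf1, C160 and Tau95 were lower at 30 min, with changes of -0.73, -0.70 and -0.64. Here the proteins differed more at 30 min, over a range of 1.54, than at 0 min, over 0.87.

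GPM1 encodes phosphoglycerate mutase, which moves the phosphate group before the enolase step. Its upstream region had 0.36 for Tau95, 0.41 for Brf1, 0.74 for Bdp1 and 0.68 for C160 at 30 min, against 0.33, 0.40, 0.27 and 0.47 at 0 min. It varied least of the 9, by 0.47 over the 8 arrays, and its highest change was that of Bdp1, 0.47.

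ENO1 and ENO2 encode the enolases, which make phosphoenolpyruvate, ENO2 being the form induced by glucose. The downstream region of ENO1 had 1.26 for Tau95, 1.11 for Brf1, 0.41 for Bdp1 and 2.05 for C160 at 30 min, against 0.51, 0.86, 0.29 and 0.60 at 0 min. The C160 change was 1.45, and 38 of 6258 features had a higher one. The Tau95 change was 0.76, the highest of the 9 regions. The Bdp1 change was 0.12 and the Brf1 change 0.25, or -0.079 with the arrays scaled to equal spread. The downstream region of ENO2 was dim, with -0.68 for Tau95, -0.89 for Brf1, -0.68 for Bdp1 and -0.89 for C160 at 30 min, against 0.023, -0.91, -0.55 and -0.67 at 0 min. Only Tau95 at 0 min departed from the other 7 arrays, and the Tau95 change was -0.71.

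CDC19 encodes the pyruvate kinase of cells on glucose, the last step of glycolysis. Its downstream region had 0.52 for Tau95, 0.51 for Brf1, 0.26 for Bdp1 and 0.54 for C160 at 30 min, against 0.80, 0.055, 0.31 and 0.38 at 0 min. Its changes were -0.28 for Tau95, 0.45 for Brf1, -0.043 for Bdp1 and 0.16 for C160.

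Taken by protein, the change at 30 min relative to 0 min was negative for Tau95 at most of these regions and small or of mixed sign for the others. For Tau95 the median change was -0.64, a ratio of 0.642, with 7 of 9 regions below 0. Over 6241 features the median was 0.19 and 35.0% were below 0. A change of -1 or less was found at 1 region, FBA1 (1.81% of all features). With the arrays centred on all features or quantile normalized it was found at 3. TDH3 and TDH2-1, at -0.98 and -0.95 before, passed the threshold there. The share of all features at -1 or less under these settings was not computed. A change of 1 or more was found at 0 of 9 (6.87% of all features). Leaving out FBA1 or TDH3 gave a median of -0.46.

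For C160 the median was -0.049, against 0.088 over all features, with 4 regions above 0 (57.9% of all features) and 5 below. FBA1 was lower by 2-fold or more (2.17% of all features) and ENO1 higher (3.36%). For Brf1 the median was 0.15, against -0.032, and 7 regions were above 0 (47.9% of all features). Centring the arrays on all features gave a median of 0.050 with 5 regions above 0, and quantile normalization a median of 0.28. TDH2-0 was higher by at least 2-fold (5.28% of all features) and 0 regions were lower by as much (7.10%). For Bdp1 the median was 0.12, against 0.042, and no region passed 2-fold up (0.777% of all features) or down (2.72%). The median size of the change regardless of sign was 0.71 for Tau95, against 0.39 over all features, while for Bdp1 it was 0.13, against 0.25.

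**Figure D2:**
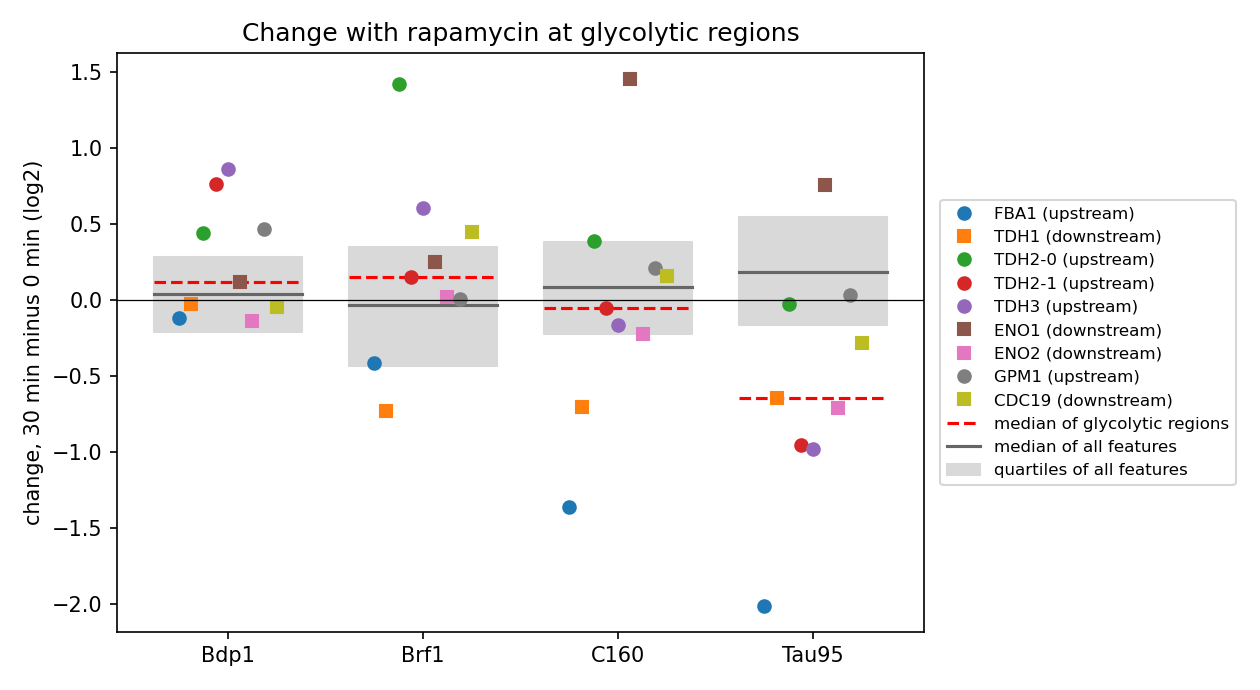
Change in relative brightness (30 min minus 0 min, log2, y axis) at each glycolytic region for the 4 proteins. Circles are upstream and squares downstream regions, dashed red lines their medians, grey lines and boxes the median and quartiles of all features. For Tau95, 6 of the 9 points lie below the lower quartile of all features, -0.16, with FBA1 at -2.01.

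Upstream and downstream regions were set side by side. The 5 upstream regions had median changes of -0.95 for Tau95, 0.15 for Brf1, 0.47 for Bdp1 and -0.049 for C160. The 4 downstream regions had -0.46, 0.14, -0.034 and -0.030 in the same order. Bdp1 was higher at 30 min at 4 of 5 upstream regions (54.8% of all features), FBA1 being the exception.

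The proteins were then compared on the untreated arrays, where Tau95 was high relative to the others. It was the highest of the 4 proteins at 2 of 9 regions at 30 min (26.5% of all features) and at 6 of 9 at 0 min (23.0% of all features). The value of Tau95 minus the mean of Bdp1, Brf1 and C160 had a median of 0.072 at 30 min and 0.55 at 0 min over the 9 regions, where all features had 0.077 and -0.081. The median at 30 min turned to -0.030 with the arrays centred, -0.038 with equal spread and -0.10 with quantile normalization. This quantity shares the Tau95 arrays with the Tau95 change and is no separate evidence for it.

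At 0 min it was 1.58 at TDH3, 1.38 at TDH2-1 and 1.25 at FBA1, so 3 of 9 regions reached 1 (3.15% of all features). Of 6023 features, 33 had a higher value than TDH3, 55 than TDH2-1 and 79 than FBA1. All 3 are upstream regions, TDH2-1 being the part that likely lies beside MET3. ENO2 followed with 0.73, CDC19 with 0.55 and TDH2-0 with 0.52, while TDH1 had 0.16, GPM1 -0.053 and ENO1 -0.076. A high difference did not always go with a high Tau95 value. At 0 min Tau95 was at percentile 93.5 of all features at TDH3 and 87.8 at FBA1. It was at 55.4 at TDH2-1 and 49.1 at ENO2. There Bdp1 was at percentile 4.1 and 32.6, and Brf1 at 13.7 and 15.1. At 30 min the 9 differences ran from -0.25 at TDH2-0 to 0.17 at TDH3, and 0 of 9 reached 1 (4.42% of all features). Differences of 1 or more were not limited to glycolytic genes. Among the other highly transcribed genes described below, 4 of 21 regions reached 1 at 0 min and 3 of 20 at 30 min.

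The median excess at 0 min did not rest on 1 of the other proteins, though all these differences share the 1 Tau95 array. Tau95 minus Bdp1 alone had a median of 0.57 over the 9 regions, Tau95 minus Brf1 0.74 and Tau95 minus C160 0.54. It was above 0 at 8, 7 and 7 of 9 regions in that order, against 43.5%, 43.0% and 45.8% of all features. It reached 1 at 3, 3 and 1 of 9 regions, so that count was lower against C160. The share of all features that reach 1 was not computed for the single proteins.

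**Figure D3:**
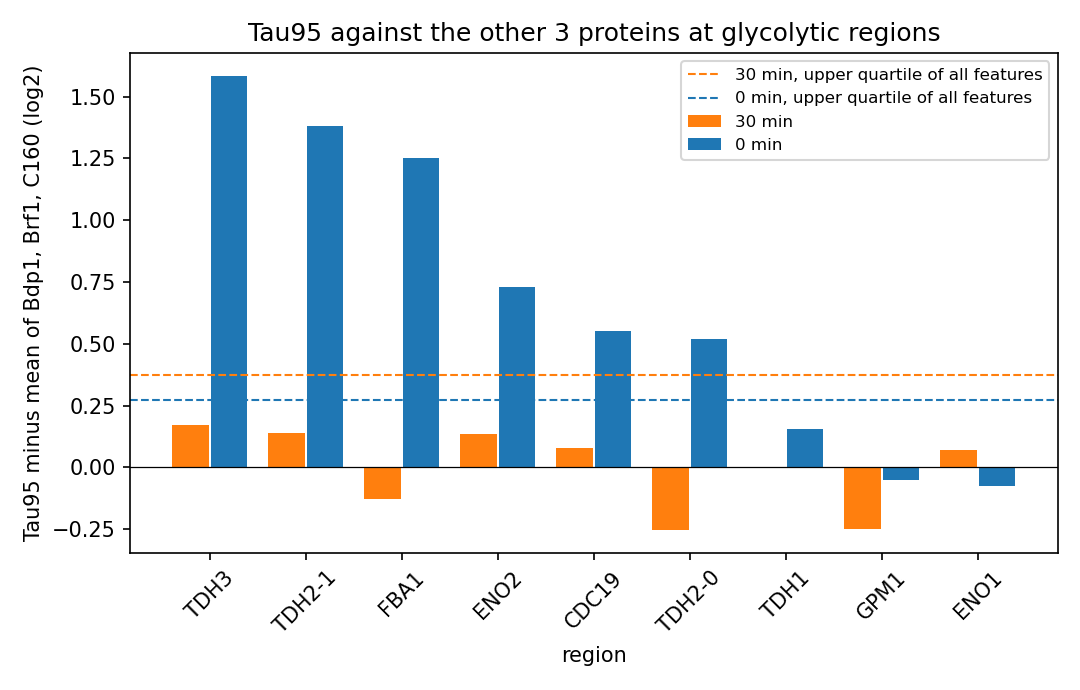
Tau95 minus the mean of Bdp1, Brf1 and C160 (log2, y axis) at the 9 glycolytic regions, as bars for 30 min (orange) and 0 min (blue), with dashed lines at the upper quartile of all features. At 0 min TDH3, TDH2-1 and FBA1 reach 1.58, 1.38 and 1.25, while at 30 min no bar is above 0.17.

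Each gene except GPM1 also had a region on its other side, named for a neighbour at lower coordinates, and it was used to describe both flanks. Downstream of GPM1 the neighbour is a tRNA gene, YNCK0006C, and no region was found for that side, so it is not described. The region between PEP8 and TDH1, upstream of TDH1, had 1.60 for Tau95, 1.66 for Brf1, 2.64 for Bdp1 and 2.61 for C160 at 30 min, against 1.98, 1.81, 2.63 and 2.05 at 0 min. On 8 of 8 arrays it was brighter than the downstream region, by a median of 1.46. A small gene without a feature, YJL052C-A, lies between PEP8 and TDH1 in the gene table and was passed over.

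Upstream of ENO1, between PUP2 and ENO1, the 2 parts differed widely. PUP2-1, by its number the part beside ENO1, had 3.62 for Tau95, 3.99 for Brf1, 2.59 for Bdp1 and 4.45 for C160 at 30 min, against 3.23, 3.27, 2.30 and 2.84 at 0 min. For Bdp1 they lie below the medians of Pol III genes on the same arrays, 2.95 at 30 min and 3.27 at 0 min. The C160 value at 0 min also lies below its median, 2.95, and the other values lie above theirs. The gene table has no tRNA gene in this interval. Long terminal repeats and other elements that the table does not list could not be looked for. PUP2-0 stayed between -0.17 and 0.30 on the 7 arrays with a value. The C160 change at PUP2-1 was 1.61, so C160 was brighter at 30 min on both flanks of ENO1. The nearest tRNA gene in the table follows COQ6, the gene after ENO1.

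Upstream of CDC19, CYC3-0 and CYC3-1 had values from 0.74 to 2.37, above the downstream region on 8 of 8 arrays when averaged, by a median of 1.47. For FBA1 the order was the other way round. The downstream region, beside BLI1, had 1.48 for Tau95, 1.30 for Brf1, 2.16 for Bdp1 and 2.15 for C160 at 30 min, against 1.58, 1.62, 2.12 and 2.09 at 0 min. The upstream region of FBA1 was above it on 1 of 8 arrays, Tau95 at 0 min. The Tau95 change downstream was -0.099, so the change of -2.01 was found on the promoter side of this gene.

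The downstream region of TDH3, beside HIP1, had 0.68 for Tau95, 0.59 for Brf1, 1.16 for Bdp1 and 0.69 for C160 at 30 min, against 1.47, 0.46, 1.23 and 1.65 at 0 min. Both sides of TDH3 thus had lower Tau95 values at 30 min, with a change of -0.98 upstream and -0.79 downstream. ENO2 was dim on both sides, its upstream region beside YHR173C lying between -1.25 and -0.84 on 7 arrays. For TDH2 the downstream region beside MHO1 lay between -1.06 and -0.37 on 7 arrays.

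PGK1, which encodes phosphoglycerate kinase, could be described by its upstream region beside ADP1. It had 0.72 for Tau95, 1.83 for Brf1, 0.68 for Bdp1 and 1.07 for C160 at 30 min, against 1.37, 0.60, -0.10 and 0.66 at 0 min. Tau95 was the highest of the 4 proteins at 0 min and the second lowest at 30 min. TPI1, the gene of triose-phosphate isomerase, could be described by its downstream region beside VMS1, which had -1.75 for C160 and -1.29 for Tau95 at 30 min, against -1.37 and -0.091 at 0 min. The Tau95 change there was -1.19. No Bdp1 or Brf1 value was given there at 30 min, and at 0 min these were -0.65 and -1.21.

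Over the upstream regions with values, which 9 of the 10 genes had, Tau95 minus the mean of the other proteins had a median of -0.16 at 30 min (n = 10) and 0.54 at 0 min (n = 12). Downstream it was 0.036 at 30 min (n = 6) and 0.32 at 0 min (n = 8). The 3 values of 1 or more at 0 min (3.15% of all features) were upstream, namely those of TDH3, TDH2-1 and FBA1. Just below 1 were a downstream region, beside VMS1, with 0.989, and an upstream region, beside ADP1, with 0.984.

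**Figure D4:**
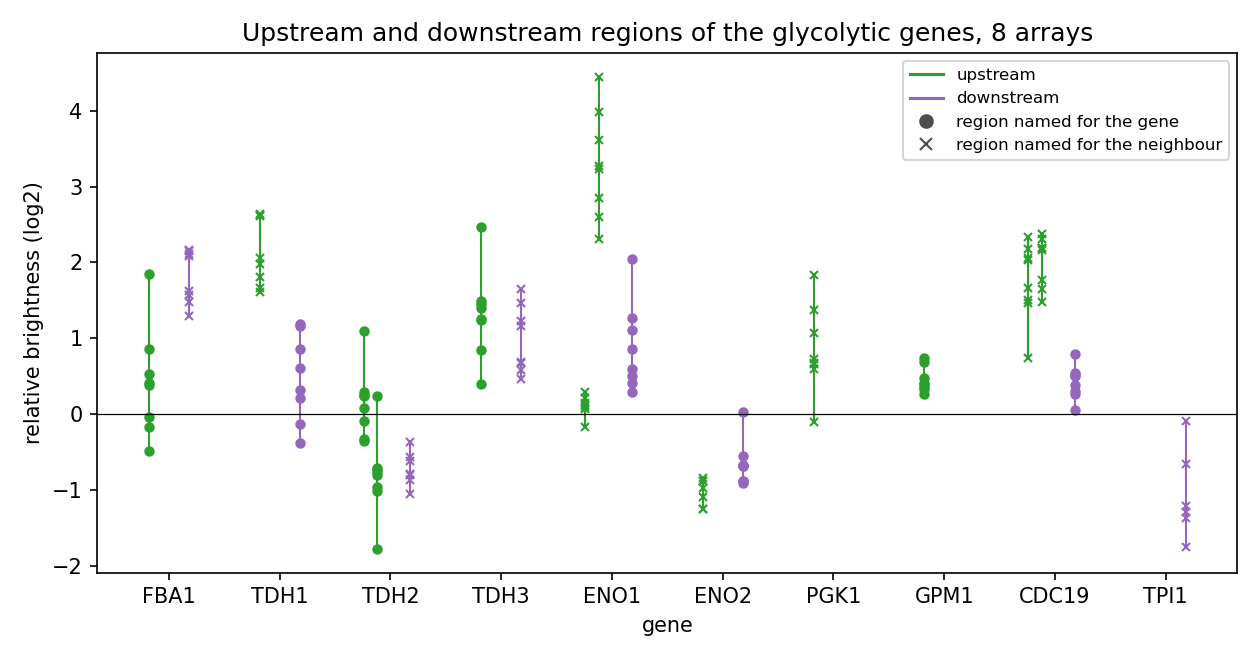
Relative brightness (log2, y axis) on up to 8 arrays of the upstream (green) and downstream (purple) regions of the 10 glycolytic genes. Each column of points is 1 region, circles are named for the gene itself and crosses for its neighbour. The upstream part beside ENO1 reaches 4.45, and the upstream regions of TDH1 and CDC19 lie above their downstream regions.

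Other genes of sugar metabolism and other highly transcribed genes were described as lists beside the 9 regions. Upper glycolysis and the minor isoenzymes, such as hexokinase (HXK1, HXK2), phosphoglucose isomerase (PGI1) and phosphofructokinase (PFK1, PFK2), gave 15 regions of 13 genes. Their median change was 0.14 for Tau95, 0.27 for Brf1, -0.090 for Bdp1 and 0.13 for C160. A change of 1 or more was found for Brf1 at GPM3 (1.14), a mutase homologue (5.28% of all features). One of -1 or less was found for Brf1 at GLK1 (-1.08), a glucokinase (7.10% of all features). The Bdp1 changes ran from -0.30 at ERR3 to 0.44 at PFK2, and those of C160 from -0.96 at GPM2 to 0.76 at EMI2. For Tau95 the range ran from -0.99 at ERR1 to 0.98 at HXK1-0, and 7 of 15 regions were below 0 (35.0% of all features). The regions HXK1-1, HXK1-2, ERR1, ERR2, ERR3 and EMI2 were at 1 or more on at least 4 arrays, and the ERR genes are enolase-related genes near chromosome ends.

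Genes of ethanol and glycerol formation gave 16 regions of 12 genes, with a median Tau95 change of -0.12, the one list beside the glycolytic regions with a median below 0 for this protein. For Tau95, 9 of 16 were below 0 (35.0% of all features), with ADH3, a mitochondrial alcohol dehydrogenase, lowest at -1.13. ADH3 had -0.46 at 30 min and 0.67 at 0 min. Medians for Bdp1, Brf1 and C160 were 0.065, 0.064 and 0.11. For Brf1, 3 regions reached 1 (5.28% of all features), with PDC6-0 highest at 1.23 and ADH4-3 lowest at -0.66. For Bdp1 the ends were ADH2 at -0.91 and ADH1 at 0.60, for C160 ADH5 at -0.49 and ADH1 at 0.59, and for Tau95 the highest change was 0.92 at GPD2. Tau95 minus the mean of the others had a median of -0.16 at 30 min (n = 15) and 0.30 at 0 min (n = 16). At 0 min it was above 0 at 12 of the 16 (43.4% of all features). The region of ADH1, the main fermentative alcohol dehydrogenase, was bright throughout, with 2.62 for Tau95, 2.33 for Brf1, 3.23 for Bdp1 and 3.47 for C160 at 30 min, against 3.29, 2.27, 2.64 and 2.88 at 0 min. With it, PDC1, PDC6-0, PDC6-1, ADH4-2, GPD2 and GPP2 were at 1 or more on at least 4 arrays.

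Gluconeogenic enzymes and regulators of glycolysis had a median Tau95 change of 0.595 over 9 regions, with 3 below 0 (35.0% of all features). TYE7-1, beside the gene of a transcription factor of glycolytic genes and next to a tRNA gene, had 3.40 at 30 min and 1.42 at 0 min for Tau95. FBP26, a fructose-bisphosphatase that acts on the regulatory sugar phosphate, was lowest for Tau95 at -0.76 and for C160 at -0.21, where TYE7-1 was highest at 1.09. For Bdp1 the ends were FBP1 at -0.75 and TYE7-0 at 0.60, and for Brf1 PCK1 at -0.86 and TYE7-0 at 0.83. FBP1, GCR1, TYE7-0 and TYE7-1 were at 1 or more on at least 4 arrays, and of these FBP1 and both TYE7 regions have a tRNA gene as the next gene. Medians for Bdp1, Brf1 and C160 were -0.015, -0.11 and 0.17.

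The hexose transporters gave 24 regions with values, with median changes of 0.14 for Tau95, 0.44 for Brf1, 0.081 for Bdp1 and 0.20 for C160. Brf1 was higher at 30 min by 2-fold or more at 7 of 24 (5.28% of all features). HXT13-0 had the highest change, 2.33, with 3.15 at 30 min and 0.81 at 0 min. HXT8-0, HXT8-1 and HXT8-2, with 1.55, 1.37 and 1.10, are among the 7 and belong to 1 gene, so the 7 are not separate genes. The highest change of the list for C160 was 1.78 at HXT8-2 and for Tau95 1.17 at HXT17, and that for Bdp1 was 0.97 at HXT16-1. The lowest were -0.25 for Bdp1 and -0.53 for Tau95, both at HXT1, -0.42 for Brf1 at HXT3-1 and -0.54 for C160 at HXT2. Regions of HXT3, HXT7, HXT8, HXT9, HXT11, HXT13, HXT15 and HXT16 were at 1 or more on at least 4 arrays, 11 regions in all.

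Highly transcribed genes outside glycolysis, such as translation factors, chaperones and histones, had Tau95 changes below 0 at 9 of 23 regions (35.0% of all features). Their median change was 0.20 for Tau95 (n = 23), 0.17 for Bdp1, -0.033 for Brf1 and 0.0064 for C160. SAM2, a methionine adenosyltransferase, was highest for Tau95 at 1.52 and HTA2, a histone H2A gene, lowest at -1.22. HTA2 was also lowest for Brf1, at -1.47, and highest for C160, at 0.95. The highest Brf1 change was 1.05 at EFT1, the lowest C160 change -0.82 at YEF3, and the Bdp1 changes ran from -0.39 at SSB2 to 0.72 at PMA1. At 0 min, however, Tau95 minus the mean of the others was positive here too, with a median of 0.39 (n = 21), and at 30 min it was 0.32 (n = 20), while the glycolytic regions had 0.072 at 30 min and 0.55 at 0 min. In this list the difference reached 1 at 3 of 20 regions at 30 min (4.42% of all features) and at 4 of 21 at 0 min (3.15%). For PMA1, the plasma membrane proton pump, this difference was 2.04 at 30 min and 1.64 at 0 min. EFT1 was the one region of this list at 1 or more on at least 4 arrays. No difference between lists was tested. The share of all features at 1 or more on at least 4 arrays was not computed, so these counts have no background.

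**Figure D5:**
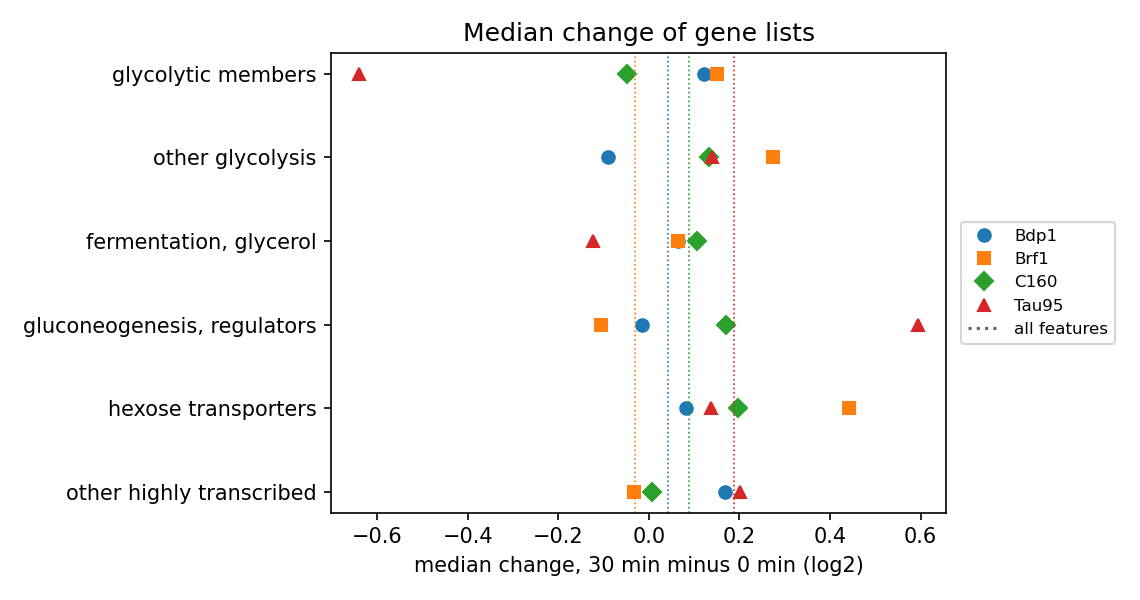
Median change (30 min minus 0 min, log2, x axis) of the 9 glycolytic regions and of 5 other gene lists (y axis) for the 4 proteins, with dotted lines at the medians of all features. The Tau95 symbol of the glycolytic regions, at -0.64, lies lowest of the Tau95 symbols, that of gluconeogenesis and regulators, at 0.595, highest.

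The features whose 8 values lay nearest to the medians of the glycolytic regions were sought among 5478 others with all values, by the root mean square difference over the 8 arrays. They were the regions of FIP1 (0.11), a polyadenylation factor, RRP9 (0.15), a component of the U3 small nucleolar particle, QCR10 (0.16), of respiratory complex III, GDA1 (0.17), a Golgi guanosine diphosphatase, SPC25 (0.18), of the kinetochore, and RSA3 (0.18), of ribosome assembly. Over all these features the median was 0.96. Of the 6, SPC25, RSA3 and QCR10 had lower Tau95 values at 30 min, with changes of -0.62, -0.55 and -0.32, while FIP1, RRP9 and GDA1 had changes of 0.067, 0.081 and 0.12. The members themselves differed from their own medians by 0.20 to 1.27. The 6 regions were picked as the nearest of 5478, so their smaller differences say nothing about the members.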

How the data were processed

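The authors deposited log2 values for 6399 features on 8 arrays. Per the labels, immunoprecipitated DNA was labelled indirectly with Cy5 and Cy3. The design text says that enrichment ratios were scaled to a median of 1 over a published set of loci without Pol III. Background correction, spot filters and the genome build of the features: not given in the sources used here. Base 2 was taken because 93.9% of 2873 antilogs of the lower values for Brf1 at 30 min lay within 0.05 steps of multiples of 1 in 157, against 17.0% on the best grid for base e and 17.2% for base 10. The other arrays do not settle the base on their own.

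From these log2 values, changes (30 min minus 0 min), differences between proteins, medians and counts past 2-fold were computed with Python 3.11.15, pandas 2.3.3 and NumPy 2.4.6. The code was tested on simulated data. With 1 array per group there was no test and no p-value, and arrays' number limits the precision. Gene names and neighbours came from the RefSeq gene table of assembly R64, which matched 5525 features, and no coordinates are printed because the build of the array is unknown. Members and lists were chosen with earlier results of these data known. All members were named, with the genes of other lists that had the highest and lowest changes or a value of 1 or more on at least 4 arrays, the 6 features nearest in pattern, and neighbours. Promoter sequences were not analysed here. Alternatives were centring, equal spread, quantile normalization, complete features, averaged features, members beside tRNA genes, and a 1.5-fold threshold.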

Additional observations from a re-analysis of the deposited data

Results flagged for a closer look

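The median change of the glycolytic regions had opposite signs for some proteins, on 1 array each, and this difference between proteins was not tested. The median for Tau95 minus that for Bdp1 was -0.76, and Tau95 minus Brf1 was -0.79. The median for C160 minus that for Bdp1 was -0.17, and C160 minus Brf1 was -0.20, which are small beside the range of single regions. At TDH2-0 the Brf1 change was 1.42 while that of Tau95 was -0.023, also untested. The Brf1 array at 30 min, which had the most features without a value, enters these values, and its part was not tested.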

How the results depend on the processing

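Of 207 alternative values, 164 stayed within 0.1 (log2) or, for counts, within 1.5 times, 40 moved further and 3 turned their sign, all 3 being the small median of Tau95 minus the other proteins at 30 min. That median was -0.030 with arrays centred on all features, -0.038 with equal spread and -0.10 with quantile normalization. The negative median change of Tau95 and its excess at 0 min kept their direction in every alternative run. Centring gave median changes of 0.050 for Brf1 and -0.76 for Tau95, median levels at 30 min of 0.30 for Bdp1 and 0.068 for Tau95, and 3 regions at -1 or less for Tau95. Equal spread gave median levels of 0.27 at 30 min and 0.19 at 0 min for Bdp1, 0.31 for Brf1 at 30 min, 0.52 for C160 at 0 min and 0.071 for Tau95 at 30 min. It gave 1 region at 1 or more at 30 min and 0 at 0 min for Bdp1, 1 and 2 for Brf1, 2 for C160 at 0 min, and 2 regions at -1 or less for Tau95. Quantile normalization gave median changes of 0.28 for Brf1 and -0.76 for Tau95. Its median levels were 0.51 for Brf1 and 0.54 for C160 at 0 min and 0.095 for Tau95 at 30 min, with 2 bright regions each for Brf1 and C160 at 0 min and 3 at -1 or less for Tau95. Averaging the TDH2 regions gave median levels of 0.28 for Brf1 and 0.15 for C160 at 30 min and 0.65 for Tau95 at 0 min, and 0 regions higher by 2-fold for Brf1. A 1.5-fold threshold gave at 0 min 3 regions for Brf1, 3 for C160 and 4 for Tau95. For changes it gave 2 higher for Bdp1, 2 for Brf1 and 1 for Tau95, and 1 lower for Brf1, 2 for C160 and 5 for Tau95. Chosen after seeing the data, Tau95 minus Brf1 alone gave 0.74 at 0 min, and the Tau95 change was -0.46 without FBA1 and -0.46 without TDH3. No member region has a tRNA gene as its next gene and all have 8 values, so these 2 alternatives changed nothing. The tRNA gene downstream of GPM1 lies on the side away from its region. Long terminal repeats as next elements were not run, since the gene table lists none. No paired analysis was possible because each group has 1 array.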

Other observations

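A region named YCR013C carries a number between those of PGK1 and its neighbour POL4, and the gene table does not list this locus. It was not among the members. It had 0.69 for Tau95, 1.05 for Brf1, -0.56 for Bdp1 and 1.31 for C160 at 30 min, against -0.66, -0.58, -1.06 and 0.020 at 0 min. The changes were 1.35 for Tau95, 1.63 for Brf1, 0.49 for Bdp1 and 1.29 for C160, so all 4 proteins were brighter at 30 min, with 3 of the 4 past 2-fold. This region was picked after its values were seen.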
